A study of Mus musculus with 6 samples.

Results

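The genes described here are 8 members of the poly(ADP-ribose) polymerase (PARP) family, *Parp1*, *Parp3*, *Parp8*, *Parp9*, *Parp10*, *Parp11*, *Parp12*, and *Parp14*, together with *Dtx3l*, the ubiquitin ligase that partners PARP9. They were taken by name, through GENCODE M21 symbols, from the 54232 genes for which each of 6 RNA-seq libraries held a value, so they are 9 of 54232. The libraries came from inflammatory monocytes of the CNS of mixed BM chimera mice with EAE, a mouse model of multiple sclerosis induced by immunization with a myelin antigen. WT marrow (CD45.1) and *Ifnar1*-/- marrow (CD45.2), mixed 1:1, had been transferred into lethally irradiated GFP+ recipients, EAE was induced 6 to 7 weeks later, and all mice received 30000 IU of rIFN-β daily. GFP-CD45+CD11b+Ly6ChiLy6G- cells of each donor were sorted at disease peak, giving 3 WT and 3 *Ifnar1*-/- libraries. The comparison is therefore between rIFN-β-exposed monocytes with and without a chain of the type I IFN receptor, and no library of PBS-treated mice was analysed here. The receptor is missing from all hematopoietic cells of that donor rather than from monocytes alone, and CD45 allele and *Ifnar1* genotype cannot be told apart. There were 3 recipient mice, each with cells of both donors, so the groups may share mice. Whether each library of a group came from a mouse of its own is not stated, and if not, p-values measure the spread between these samples, which may be technical.

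PARP enzymes transfer ADP-ribose from NAD to proteins. PARP1 builds long chains at DNA breaks, whereas most other members attach single ADP-ribose units. Type I IFNs bind IFNAR1 and IFNAR2 and activate STAT transcription factors, and several PARP genes, including *Parp9*, *Parp10*, *Parp12*, and *Parp14*, are known targets of this pathway in macrophages. PARP9 and PARP14 carry macrodomains, folds that bind ADP-ribose, and PARP9 forms a complex with DTX3L.

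Promoter sequence from RefSeq (GRCm38.p6, from 250 bases before to 50 after each annotated start) was found for 6 of the 9 genes, in 7 windows; the genes without a window were *Parp9*, *Parp10*, and *Parp14*. Each window was searched on both strands for the core of the IFN-stimulated response element (GAAANNGAAA) and for the gamma-activated sequence (TTCNNNGAA), which is its own reverse complement. The first of the 2 *Parp11* windows held both motifs, and no other window of these genes held either. Of all 32841 RefSeq windows, 3.44% held the first motif and 8.3% the second. The part of this *Parp11* window upstream of the start (chr6:127446590-127446839, plus strand) is shown because it was the only window with a match. The windows of *Parp12* and *Dtx3l*, genes that like *Parp11* were higher in WT monocytes, held neither motif. Several other annotated *Parp11* transcripts start in or near its second window, and which start the monocytes used was not examined. Capitals mark the 2 matches, TTTCGATTTC at positions -44 to -35 from the start and TTCTTGGAA at -37 to -29, which overlap by 3 bases. The matches are a description of these letters, not of binding.

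*Parp11* upstream sequence: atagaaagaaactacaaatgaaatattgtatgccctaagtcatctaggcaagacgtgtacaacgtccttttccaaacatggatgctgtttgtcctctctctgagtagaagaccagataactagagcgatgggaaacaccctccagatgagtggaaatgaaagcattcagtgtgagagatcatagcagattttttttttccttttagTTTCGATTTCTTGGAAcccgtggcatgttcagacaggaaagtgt

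*Parp9* and *Dtx3l* lie head to head on opposite strands of chromosome 16, and their starts are shown because reads of this pair may be hard to separate. The 17 capitals run from the RefSeq start of *Dtx3l* at base 35939027 down to a *Parp9* transcript start at base 35939011 in the stretch chr16:35939004-35939033, written on the minus strand of GRCm38.p6. In GENCODE, *Dtx3l* starts further out, at base 35939151, so it shares 141 bases with the *Parp9* transcript that starts at base 35939011 and 682 bases with the whole *Parp9* gene, and 4 of the 7 annotated *Parp9* transcripts start within the *Dtx3l* window.

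*Dtx3l* and *Parp9* starts: gcaagaCAGGCGGCGGCTCTGCGgagaaca

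Depth and cell identity set the frame for all values. Expected counts, RSEM's estimate of the reads of each gene, totaled 4531782 to 7321380 with the receptor and 5442568 to 6916101 without it. The share of mitochondrial ribosomal RNA was 12.3% to 17.6% in WT and 15.1% to 22.7% in *Ifnar1*-/- libraries. A count of 3, used as the detection floor, was worth 0.410 to 0.662 CPM (counts scaled to library size), and such floors cover counting error only. All 9 genes were far above it. Levels are given below as normalized CPM, that is, rounded counts per TMM-adjusted library size, and genotypes were compared by edgeR's quasi-likelihood test over 11254 genes. A gene was called when its Benjamini-Hochberg adjusted p was at most 0.05 and its fold change at least 1.5. Of the 11254 genes, 188 were called higher in WT and 52 lower, and the median log2 fold change was -0.01. Values per library are given in the order 1, 2, 3, first for WT and then for *Ifnar1*-/- monocytes. The targeted gene, *Ifnar1*, had 153, 126, and 111 normalized CPM with the receptor and 110, 102, and 109 without it (log2 fold change 0.28, SE 0.15, edgeR adjusted p = 0.360), so it was not called, and in TPM it was 32.2 to 43.0 in WT and 41.7 to 48.7 in *Ifnar1*-/- libraries. Gene-level counts cannot show which exons were read. RSEM's length for *Ifnar1*, a mean over its transcripts weighted by their estimated abundance, did differ between groups. It was 3198 to 3552 bases in WT and 2219 to 2471 bases in *Ifnar1*-/- libraries. Such lengths did not overlap between groups for 10.6% of tested genes whose length varied. Which transcripts differed was not examined. The 8 monocyte markers summed to 8511 to 9985 normalized CPM in WT libraries and 8630 to 9779 in *Ifnar1*-/- libraries, and the sorting marker gene *Ly6c2* was itself called higher in WT (log2 fold change 1.40, SE 0.23, edgeR adjusted p = 0.00959). DESeq2 called 3 of the 8 markers higher (*Ly6c2*, *Fcgr1*, and *Plac8*) and 1 lower in WT (*Ccr2*, edgeR log2 fold change -0.62, adjusted p = 0.143).

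Among the 9 genes, *Parp14*, *Parp12*, *Parp11*, *Dtx3l*, and *Parp10* were called higher in WT monocytes, by 1.96- to 2.68-fold, and none was called lower. *Parp9* was 1.55-fold higher in WT and did not pass the threshold. *Parp1*, *Parp3*, and *Parp8* had overlapping values in both genotypes. Thus 5 of 9 genes were called higher, beside 1.67% of all tested genes, and 0 of 9 lower, beside 0.462%. The median log2 fold change of the 9 was 0.97. In 6 of the 9, the called genes and *Parp9*, every WT library lay above every *Ifnar1*-/- library, beside 11.1% of all tested genes. The 9 genes were chosen with earlier results of these data known, so these counts are not independent evidence. In sorted bulk samples, fewer cells of a type and less RNA per cell cannot be told apart.

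**Figure D1:**
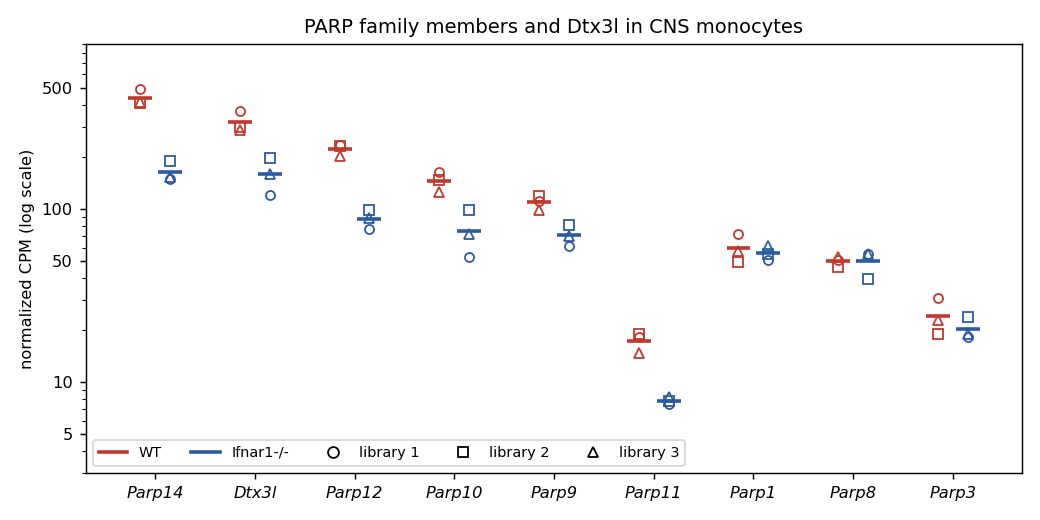
Normalized CPM (log scale) of the 8 PARP genes and *Dtx3l* in each library, with circles, squares, and triangles for libraries 1, 2, and 3 and a line at the group mean. The WT points of *Parp14*, *Dtx3l*, *Parp12*, *Parp10*, *Parp9*, and *Parp11* lie above all *Ifnar1*-/- points of the same gene, and those of *Parp1*, *Parp8*, and *Parp3* do not.

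Of the macrodomain proteins, *Parp14* (ENSMUSG00000034422.14, chr16:35832874-35871544, minus strand), which encodes a STAT6 coactivator in IL-4 signaling, had the highest level. It had 496, 410, and 414 normalized CPM with the receptor and 149, 189, and 154 without it. The lowest WT library was above the highest *Ifnar1*-/- library, and the means were 440 ± 48.5 and 164 ± 22.0 (SD, n = 3 per group). The log2 fold change was 1.42 (SE 0.16), a 2.68-fold difference, with an edgeR adjusted p of 0.000874. The call held under all 11 alternative settings on 6 libraries and without each library in turn. These settings include the adjusted p without the fold rule, which reuses the same edgeR fit, so no called gene can lose its call there. *Gm49730*, an unconfirmed transcript on the same strand inside *Parp14*, shares 1773 bases with it, so its reads and those of *Parp14* may be mixed.

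*Parp9* (ENSMUSG00000022906.15, chr16:35938470-35972605, plus strand), which encodes the macrodomain partner of DTX3L, had 111, 119, and 99.1 normalized CPM with the receptor and 61.1, 80.8, and 70.4 without it. No WT value overlapped an *Ifnar1*-/- value, and the means were 110 ± 10.0 and 70.8 ± 9.88 (SD, n = 3 per group). The log2 fold change was 0.63 (SE 0.15), and the adjusted p of edgeR was 0.0666. The same difference was called by DESeq2 (adjusted p = 0.0143), by edgeR with no filter on low counts (adjusted p = 0.00972), and by edgeR with a replicate block (libraries of the same number taken as pairs) plus offsets for GC content and transcript length (adjusted p = 0.0330). It was not called under the other 8 settings, whose adjusted p reached 0.0780. Each of these 3 settings called 6 of the 9 genes, and over all genes tested they called 2.61%, 2.87%, and 2.35% higher in WT. Its log2 fold change was 0.63 to 0.66 in all settings on 6 libraries and 0.54 to 0.76 with 1 library left out, where it was never called.

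*Dtx3l* (ENSMUSG00000049502.17, chr16:35926511-35939151, minus strand) encodes a ubiquitin ligase of the Deltex family. It had 369, 298, and 286 normalized CPM with the receptor and 121, 197, and 159 without it. The groups did not overlap, and *Ifnar1*-/- library 2 came closest to WT. The means of 317 ± 44.7 and 159 ± 37.8 (SD, n = 3 per group) gave a log2 fold change of 1.00 (SE 0.20) with an edgeR adjusted p of 0.0267. The call held under all 11 alternative settings on 6 libraries but was lost when any library other than *Ifnar1*-/- library 2 was left out, with adjusted p values from 0.0521 without WT library 3 to 0.120 without *Ifnar1*-/- library 3. *Parp9* and *Dtx3l* overlap by 682 bases on opposite strands. The strand setting of the authors' counting is not given in the sources used here, and without strand, reads from these 682 bases cannot be told apart. The same holds for 5854 bases of *Parp9* shared with the antisense gene *Gm15564* and for 987 bases of *Parp3* shared with *Rrp9*.

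Among the enzymes that attach single ADP-ribose units, *Parp12* (ENSMUSG00000038507.6, chr6:39086410-39118349, minus strand) encodes a zinc finger protein that restricts replication of several RNA viruses. It had 235, 232, and 203 normalized CPM with the receptor and 76.5, 98.5, and 89.6 without it. The lowest WT value stood well clear of the highest *Ifnar1*-/- value. With means of 223 ± 17.3 and 88.2 ± 11.0 (SD, n = 3 per group), the log2 fold change was 1.34 (SE 0.15), or 2.53-fold, with an edgeR adjusted p of 0.000849. Its call, like that of *Parp14*, held under all 11 alternative settings and without each library.

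*Parp11* (ENSMUSG00000037997.12, chr6:127446840-127494261, plus strand) encodes an enzyme known to modify the ubiquitin ligase β-TrCP, which promotes loss of IFNAR1 from cells. It was the lowest of the 9 genes, with 18.2, 18.9, and 14.8 normalized CPM in the presence of the receptor and 7.48, 7.79, and 8.28 in its absence, which rest on 75 to 128 and 45 to 49 rounded counts. The *Ifnar1*-/- values lay within a narrow band well below WT. The means were 17.3 ± 2.20 and 7.85 ± 0.40 (SD, n = 3 per group), and the log2 fold change was 1.14 (SE 0.19), with an edgeR adjusted p of 0.0117. The call was lost without *Ifnar1*-/- library 1 (adjusted p = 0.0694) and in DESeq2 with the replicate block (adjusted p = 0.0595). *Gm43633*, an unconfirmed transcript on the same strand, lies within *Parp11* over 2330 bases.

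*Parp10* (ENSMUSG00000063268.12, chr15:76231174-76243441, minus strand) encodes an enzyme with ubiquitin-binding motifs that dampens NF-κB signaling. It had 164, 147, and 127 normalized CPM with the receptor and 53.1, 98.6, and 71.5 without it. The groups were separate, but the *Ifnar1*-/- values spread over 1.86-fold, the widest range of the 9 genes in either group. The means of 146 ± 18.9 and 74.4 ± 22.9 (SD, n = 3 per group) gave a log2 fold change of 0.97 (SE 0.21) and an edgeR adjusted p of 0.0481, just inside the threshold. The call was lost with GC and length offsets (adjusted p = 0.0665), with the replicate block (adjusted p = 0.0528), and when any library other than *Ifnar1*-/- library 2 was left out (adjusted p from 0.0718 without WT library 3 to 0.183 without *Ifnar1*-/- library 3). Its end overlaps *Plec* by 1401 bases on the same strand.

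*Parp1*, *Parp3*, and *Parp8* were the members whose groups overlapped. *Parp1* (ENSMUSG00000026496.11, chr1:180568924-180601254, plus strand), which encodes the main sensor of DNA strand breaks, had 71.6, 49.7, and 57.7 normalized CPM with the receptor and 50.8, 55.4, and 61.1 without it. The *Ifnar1*-/- values fell inside the WT range, and the log2 fold change was 0.10 (SE 0.16, edgeR adjusted p = 0.791). *Parp3* (ENSMUSG00000023249.15, chr9:106470322-106476949, minus strand), which takes part in repair of double-strand breaks, had 30.9, 19.1, and 22.9 normalized CPM with the receptor and 18.3, 23.7, and 18.9 without it. WT library 1 was the only value outside a shared band, and the log2 fold change was 0.27 (SE 0.21, edgeR adjusted p = 0.543). *Parp8* (ENSMUSG00000021725.9, chr13:116854820-117025537, minus strand), a little-studied member that attaches single units, had 51.2, 46.3, and 53.1 normalized CPM with the receptor and 55.4, 39.7, and 54.8 without it. These values interleave, and the log2 fold change was 0.01 (SE 0.16, edgeR adjusted p = 0.986). A p that misses the threshold does not show that these levels were equal.

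The libraries of a group differed in a like order for several genes. *Ifnar1*-/- library 2 had the highest *Ifnar1*-/- level of *Parp3*, *Parp9*, *Parp10*, *Parp12*, *Parp14*, and *Dtx3l*, and *Ifnar1*-/- library 1 the lowest of all genes but *Parp8*. The summed level of 30 IFN-stimulated reference genes followed the same order, with 1403, 1802, and 1554 normalized CPM in *Ifnar1*-/- libraries 1, 2, and 3. WT library 1 was the highest WT library for *Parp1*, *Parp3*, *Parp10*, *Parp12*, *Parp14*, and *Dtx3l* and for the reference sum, with 6819 normalized CPM beside 4772 and 4804. *Ifnar1*-/- library 1 also had the largest share of mitochondrial ribosomal RNA, 22.7%, and library 2 the smallest of its group, 15.1%. The part of that share in the order was not tested.

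Transcripts of other cells were also compared. Summed T cell markers (*Cd3e*, *Cd3d*, *Cd3g*, *Cd4*, *Lck*, *Cd2*, *Cd247*, and *Trac*) came to 22.7 to 52.2 normalized CPM in WT libraries and 8.64 to 21.1 in *Ifnar1*-/- libraries. All 7 tested markers were higher in WT; none was called by edgeR or DESeq2, and 7 had an unadjusted edgeR p under 0.05. None of the 8 was at 0 in any library. The NK cell markers summed to 3.40 to 11.3 in WT and 1.02 to 3.36 in *Ifnar1*-/- libraries, and the pDC markers to 53.1 to 70.2 and 37.3 to 53.9. The neutrophil and microglia sums overlapped between groups (158 to 384 beside 251 to 543, and 245 to 321 beside 287 to 365). The B cell sums were at most 1.71. The part of T, NK, or pDC transcripts in the PARP differences was not tested.

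Levels of different genes were compared per length, in TPM. In WT monocytes the order was *Parp14* (93.7 ± 6.41 TPM, SD, n = 3), *Parp12* (70.3 ± 12.3), *Dtx3l* (62.6 ± 6.26), *Parp9* (44.9 ± 9.18), *Parp10* (43.8 ± 4.49), *Parp1* (19.3 ± 2.86), *Parp8* (17.8 ± 2.90), *Parp3* (16.9 ± 1.43), and *Parp11* (8.54 ± 1.85). Neighbors in this order had separate ranges of TPM at 4 steps, from *Parp14* to *Parp12*, from *Dtx3l* to *Parp9*, from *Parp10* to *Parp1*, and from *Parp3* to *Parp11*. Compared within libraries, *Parp12* was also above *Dtx3l*, and *Parp1* above *Parp8*, in all 3 WT libraries. *Parp9* was above *Parp10*, and *Parp8* above *Parp3*, in 2 of 3. In *Ifnar1*-/- monocytes the upper genes were closer together: *Parp14* had 32.8 ± 5.68 TPM, *Dtx3l* 31.9 ± 10.9, *Parp12* 27.9 ± 5.88, *Parp9* 27.2 ± 4.35, *Parp10* 23.2 ± 9.15, *Parp8* 20.1 ± 2.47, *Parp1* 16.9 ± 1.62, *Parp3* 15.3 ± 3.64, and *Parp11* 4.82 ± 1.74. Here the step from *Parp3* to *Parp11* was the one step at which neighboring ranges did not overlap. It was also the one step that kept its order in all 3 libraries. TPM values of WT library 1 run low across genes, since protein-coding genes took 347927 TPM there and 432131 to 515933 in the other libraries.

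Ratios of these levels were compared with two-sided exact permutation tests, which cannot give a p below 0.1 with 3 libraries against 3. The ratio of *Parp14* to *Parp9*, on (TPM + 1), was 2.43, 1.84, and 2.05 in WT and 1.19, 1.22, and 1.19 in *Ifnar1*-/- monocytes. All WT libraries were above all *Ifnar1*-/- libraries, and the difference of log2 ratios was 0.80 (exact p = 0.1, adjusted p = 0.15 over 3 ratios). The ratio of *Parp9* to *Dtx3l* was 0.628, 0.775, and 0.747 in WT and 1.09, 0.742, and 0.843 in *Ifnar1*-/- monocytes. On this scale the groups overlapped (difference of log2 ratios -0.30, exact p = 0.3). On normalized CPM in place of TPM they did not overlap (difference -0.38, exact p = 0.1), and without *Ifnar1*-/- library 1 the difference on TPM was -0.15 (exact p = 0.6). The share of *Parp1* in the summed TPM of 16 PARP genes was 4.35%, 3.41%, and 4.47% in WT and 5.28%, 5.17%, and 6.10% in *Ifnar1*-/- monocytes (exact p = 0.1, adjusted p = 0.15). The denominator itself changed, from 407 to 517 TPM in WT to 285 to 351 TPM in *Ifnar1*-/- libraries.

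**Figure D2:**
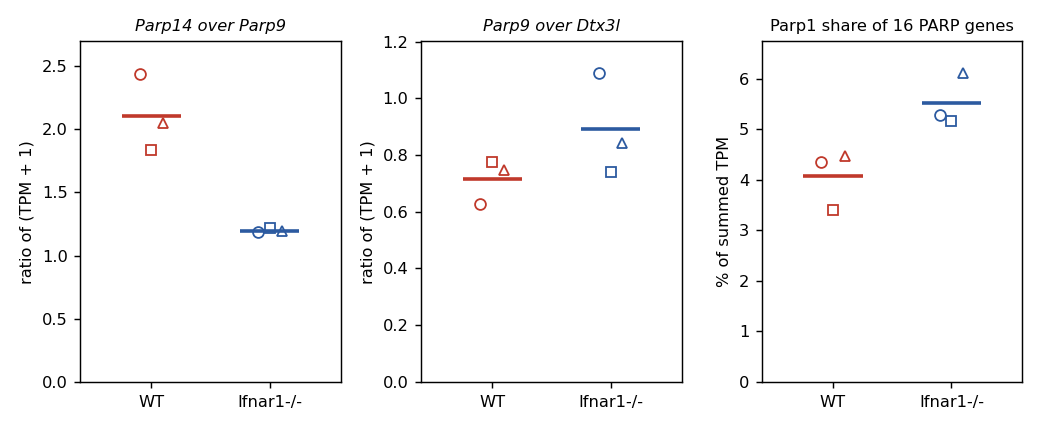
Ratio of *Parp14* to *Parp9* and of *Parp9* to *Dtx3l*, both on (TPM + 1), and the share of *Parp1* in the summed TPM of 16 PARP genes, per library (points) with the group mean (line). The *Parp14* to *Parp9* ratio was 1.84 to 2.43 in WT and 1.19 to 1.22 in *Ifnar1*-/- libraries; the *Parp9* to *Dtx3l* ratios overlap on this scale, and do not overlap on normalized CPM.

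RSEM also gives each gene a length, the mean over its transcripts weighted by their estimated abundance, so a change in it reflects a change in the estimated mix of transcripts. For *Parp14* it was 4262 to 4589 bases in WT libraries and 4627 to 5033 in *Ifnar1*-/- libraries. For *Parp1* it was 2813 to 3093 bases in WT and 3106 to 3265 in *Ifnar1*-/- libraries, and for *Parp8* 2551 to 2986 and 2383 to 2492. These are 3 of 9 genes without overlap between groups, beside 10.6% of the 8985 tested genes whose length varied, and the exact permutation p of each was 0.1, the smallest possible. The lengths of the other 6 genes overlapped between groups, and those of *Parp12* were close to constant (3074 to 3128 bases over all libraries).

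The 9 genes were set beside 30 IFN-stimulated genes, a list of known targets chosen with earlier results of these data known. Neither the direction nor the size of their fold changes is therefore independent evidence, and ranks against them depend on that choice. Of the 30, 27 were called higher in WT and none lower. The called genes were *Isg15*, *Ifit1*, *Ifit2*, *Ifit3*, *Irf7*, *Usp18*, *Rsad2*, *Oas1a*, *Oasl1*, *Oasl2*, *Mx1*, *Mx2*, *Stat2*, *Ifi44*, *Cmpk2*, *Rtp4*, *Zbp1*, *Ddx58*, *Ifih1*, *Herc6*, *Trim30a*, *Eif2ak2*, *Bst2*, *Xaf1*, *Samd9l*, *Ifi35*, and *Lgals3bp*. Their folds ran from 2.05 to 37.4, with a median of 9.03, whereas those of the 5 called PARP and *Dtx3l* genes ran from 1.96 to 2.68, with a median of 2.21. The mean level in *Ifnar1*-/- monocytes was 2.66% to 48.7% of the WT mean over the 27 genes (median 11.1%). It was 37.3% for *Parp14*, 39.5% for *Parp12*, 45.3% for *Parp11*, 50.1% for *Dtx3l*, and 51.0% for *Parp10*. Of the 30 reference genes, 25 had a larger log2 fold change than *Parp14* and 27 a larger one than *Dtx3l* or *Parp10*. Among the genes that were not called, *Irf9* (log2 fold change 0.50), which encodes a transcription factor of the pathway, and *Nmi* (0.42), which encodes a protein that binds STATs, were named after their values were seen.

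**Figure D3:**
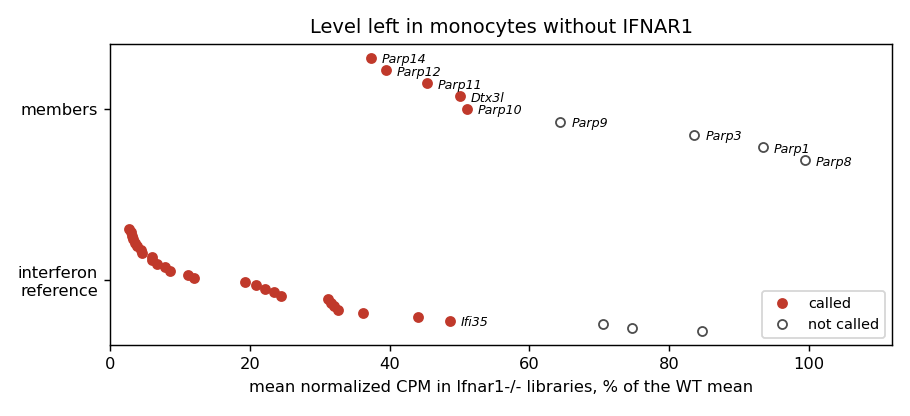
Mean normalized CPM in *Ifnar1*-/- libraries as a percentage of the WT mean, for the 9 genes and for 30 IFN-stimulated reference genes; filled points were called higher in WT. The 5 called PARP and *Dtx3l* genes keep 37.3% to 51.0% of the WT level, and the 27 called reference genes 2.66% to 48.7%.

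For each called gene, the tested genes outside the 9 with the most similar profile over the 6 libraries were found by the root mean square difference of centered log2 normalized CPM. *Parp14* was nearest to *Ifi205* (0.07) and *Zbp1* (0.10). *Parp12* was nearest to *Trex1*, a DNA exonuclease gene (0.07), and *Ube2l6*, which encodes the conjugating enzyme for ISG15 (0.09). *Parp11* was nearest to the chemokine gene *Cxcl10* and to *Setdb2*, at 0.08 each, and *Dtx3l* to *Slco3a1* (0.04) and *Themis2* (0.08). These 8 genes were themselves called higher in WT. That follows largely from how they were chosen, since the matched profile includes the difference between genotypes, so it is not separate evidence. Outside the 9 genes, *Parp10* was nearest to *Slamf7* and *Fbxw17* (0.10 each), neither of which was called (edgeR adjusted p = 0.106 and 0.0619). Among the 9 genes themselves, *Parp12* and *Parp14* were nearest to each other (0.11), and *Parp10* and *Dtx3l* (0.08) were closer than *Parp10* was to either of these genes.

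The rest of the PARP family comprised 8 further genes, all of which were tested. *Zc3hav1* was called, and encodes ZAP, a catalytically inactive member that binds CpG-rich viral RNA. It had 235, 183, and 200 normalized CPM with the receptor and 124, 128, and 113 without it, without overlap. Its means of 206 ± 26.4 and 122 ± 7.91 (SD, n = 3 per group) gave a log2 fold change of 0.76 (SE 0.15, edgeR adjusted p = 0.0265). This call was lost when any library other than WT library 2 was left out, with adjusted p values from 0.0560 without WT library 1 to 0.145 without *Ifnar1*-/- library 3. The median log2 fold change of the 8 was 0.22. None of the other 7, *Parp2*, *Parp4*, *Parp6*, *Tiparp*, *Parp16*, *Tnks*, and *Tnks2*, had an unadjusted edgeR p under 0.05 or was called by DESeq2. Of these, *Tnks2*, a tankyrase gene, had the highest level per length (38.2 TPM over all libraries, log2 fold change -0.14, edgeR adjusted p = 0.654).

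**Figure D4:**
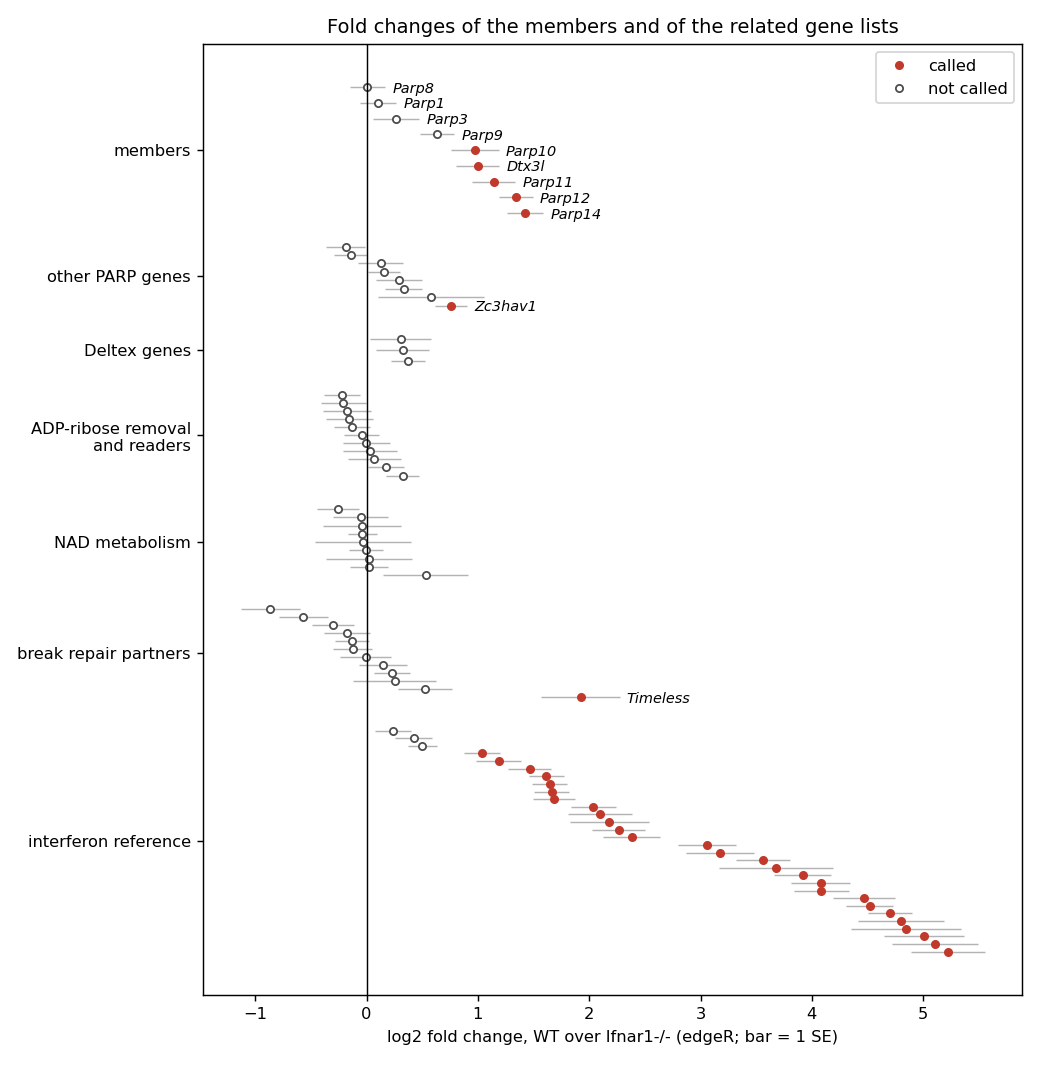
The log2 fold change of WT over *Ifnar1*-/- (point) with its SE (bar) for each tested gene of 7 lists; filled points were called. The filled points include 5 of 9 members and 27 of 30 reference genes, and in the other lists *Zc3hav1* and *Timeless*.

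Genes that act with the PARP enzymes were compared by function. Of the other Deltex genes, 3 of 4 were tested and 0 were called by edgeR or DESeq2, with 1 at an unadjusted edgeR p under 0.05 (*Dtx2*, log2 fold change 0.37, edgeR adjusted p = 0.245). *Dtx4* had a log2 fold change of 0.32 (SE 0.24). Of 15 genes for removal or reading of ADP-ribose, 11 were tested and 0 were called by either tool. Here *H2afy*, which encodes the macrodomain histone macroH2A1, was at an unadjusted p under 0.05 (log2 fold change 0.32, SE 0.14, edgeR adjusted p = 0.277), and *Trpm2*, an ADP-ribose-gated channel gene, had means of 69.3 ± 11.2 and 69.3 ± 18.4 normalized CPM (SD, n = 3 per group). The median of the 11 log2 fold changes was -0.04.

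NAD is the substrate of all PARP enzymes. Of 14 genes of NAD metabolism, 9 were tested, 0 were called by edgeR or DESeq2, and 0 had an unadjusted edgeR p under 0.05. *Nampt*, which encodes the rate-limiting enzyme of NAD salvage, had 594 ± 136 normalized CPM in WT and 710 ± 63.8 in *Ifnar1*-/- libraries (SD, n = 3 per group; log2 fold change -0.26, edgeR adjusted p = 0.516). *Bst1*, which encodes an NAD-consuming surface enzyme, had 209 ± 28.4 and 209 ± 15.1 normalized CPM. Among 12 tested partners of PARP1 in break repair, *Hpf1*, which encodes the cofactor that directs PARP1 to serine, was among the highest per length and was not called (log2 fold change -0.30, edgeR adjusted p = 0.431). Of these 12, 3 had an unadjusted edgeR p under 0.05. *Xrcc6* and *Apex1*, named after their values were seen, were lower in every WT library than in any *Ifnar1*-/- library without being called (log2 fold changes -0.86 and -0.57, edgeR adjusted p = 0.136 and 0.210). *Hpf1* was separated in the same way, as were 12.2% of all tested genes. *Timeless*, which encodes a replication fork protein that binds PARP1, was called higher in WT. It had rounded counts of 150, 48, and 56 with the receptor and 17, 24, and 26 without it, with WT library 1 well above the others. The log2 fold change was 1.92 (SE 0.35, edgeR adjusted p = 0.0182). That call was lost without *Ifnar1*-/- library 1 (adjusted p = 0.112) or library 2 (adjusted p = 0.0621).

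Finally, the surroundings of the 9 genes were examined, since donor strains can differ near a targeted gene. *Parp14*, *Dtx3l*, and *Parp9* lie 55.5 to 55.7 Mb from *Ifnar1* on chromosome 16, and *Parp1* lies 42.5 Mb from *Ptprc*, which encodes CD45. Of 117 other genes within 200 kb of any of the 9, 36 were tested and 0 were called by edgeR, with 7 at an unadjusted p under 0.05 and a median log2 fold change of -0.02. DESeq2 called 3, *Gm49730*, *Grina*, and *Itpkb*. On chromosome 16, *Gm49730* inside *Parp14* had a log2 fold change of 1.38 (SE 0.32, edgeR adjusted p = 0.0609). Around it the log2 fold change was 0.22 for *Dirc2*, -0.12 for *Hspbap1*, -0.30 for *Kpna1*, -0.19 for *Wdr5b*, -0.55 for *Fam162a*, and -0.56 for *Ccdc58*. These neighbors were named for their position after their values were seen.

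**Figure D5:**
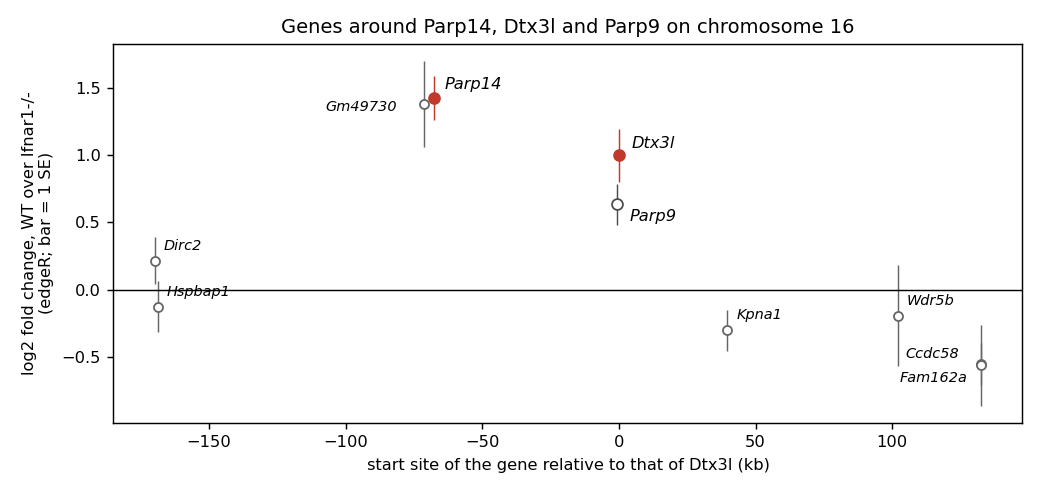
The log2 fold change of WT over *Ifnar1*-/- (point, with SE as bar) of tested genes around *Parp14*, *Dtx3l*, and *Parp9*, against the distance of their start from that of *Dtx3l* in kb; filled points were called. *Parp14* and *Dtx3l* stand at 1.42 and 1.00 and *Parp9* at 0.63, while the genes on either side lie between -0.56 and 0.22, except *Gm49730* at 1.38.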

How the data were processed

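Libraries of sorted CNS monocytes (3 WT, 3 *Ifnar1*-/-, grouped by the sample labels) were sequenced by the authors with paired-end reads of 75 bp; per the labels the notes name STAR 2.6.0c, RSEM 1.2.31, and GRCm38. The labels and the study's methods name different library kits. The deposited expected counts are RSEM estimates, not normalized, and were rounded to whole numbers here. The deposited TPM values were scaled by the authors per transcript length and to a fixed total per library; they served for levels between genes and for ratios. The deposited length values are RSEM's transcript lengths in bases.

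GENCODE M21 matched 54079 of 54232 identifiers. Of 21285 genes with any count, 11254 passed filterByExpr (minimum count 10). TMM normalization and the quasi-likelihood test of edgeR 4.0.16 (R 4.3.3) were used, without a block, with adjustment over all tested genes. The threshold (adjusted p of at most 0.05, fold of at least 1.5) follows the study's methods, which used DESeq2. Ratios were tested on log2(TPM + 1) with exact permutation tests. The tests were checked on simulated counts.

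Alternatives were DESeq2 1.42.0, limma-voom (limma 3.58.1), RLE size factors, any count in place of the filter, a minimum of 10 counts per library, exclusion of mitochondrial genes and rRNA genes, the adjusted p without the fold, a replicate block, the block with DESeq2, each library left out, and, for ratios, a pseudocount of 0.1 and normalized CPM. GC and length offsets, with and without the block, were chosen after seeing the data. The members and gene lists were chosen with earlier results of these data known. Named genes are all members, *Ifnar1*, the called genes and the 2 highest by TPM of each other list, called neighbors, and the 2 genes most like each called member; others are said to be named after their values were seen. Cell type markers are lists of textbook genes. A few single genes that this rule would name are left out of the text.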

Additional observations from a re-analysis of the deposited data

How the results depend on the processing

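*Parp14* and *Parp12* were called under all alternatives tried. Among the 9 genes, 4 to 6 were called over the alternatives on all libraries and 2 to 5 (of 5 in the full data) when 1 library was left out, with 2 without *Ifnar1*-/- library 1. Over all tested genes, 240 were called in the full data, 424 by DESeq2, 872 with no filter on low counts, and 119 to 245 with 1 library left out, with fewest without *Ifnar1*-/- libraries 1 (119) and 3 (120) and WT library 3 (148). The other PARP genes gave 0 to 1 calls with 1 library left out, and the break repair partners 2 calls (1 higher and 1 lower in WT) with no filter and 0 to 1 with 1 library left out. Of the neighboring genes, 3 were called by DESeq2, 4 with no filter, 1 with at least 10 counts in every library, 1 with GC and length offsets, 1 with the block in DESeq2, 1 with the block and these offsets, and 0 to 1 with 1 library left out. The cause of these shifts was not tested, except that each fit without a library has fewer samples.

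Directions turned for genes with log2 fold changes near 0. *Parp1* went to -0.029 with GC and length offsets and -0.043 with the block and these offsets. With 1 library left out, the log2 fold change ran from -0.045 to 0.23 for *Parp1*, from -0.12 to 0.10 for *Parp8*, from -0.021 to 0.56 for *Dtx4*, from -0.21 to 0.13 for *Trpm2*, and from -0.086 to 0.12 for *Bst1*. *Trpm2* went to 0.012 with DESeq2, 0.011 with RLE size factors, 0.011 without mitochondrial and ribosomal RNA genes, 0.024 with limma-voom, 0.024 with the block, and 0.040 with the block in DESeq2. *Bst1* went to 0.013 with DESeq2, 0.012 with RLE size factors, 0.012 without mitochondrial and ribosomal RNA genes, 0.0066 with the block in DESeq2, and 0.10 and 0.094 with GC and length offsets without and with the block.

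Libraries of the same number were not shown to come from the same mouse, and their deviations from the group means correlated at 0.0871, 0.0266, and 0.289 for numbers 1, 2, and 3, with WT library 1 closer to *Ifnar1*-/- library 2 (0.101) than to its own number. With a replicate block 220 genes were called in place of 240, and 4 of the 9 genes in place of 5. The log2 ratio of *Parp14* to *Parp9* differed by 0.80 with the block (exact sign-flip permutation p = 0.25, the smallest that 3 pairs allow). Depth limits *Parp11*, whose *Ifnar1*-/- values rest on 45 to 49 counts each, and *Timeless*, on 17 to 26.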
